A study of Mus musculus with 23 samples.

Results

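Blockade of the checkpoint receptor PD-1 was examined in the mammary fat pad of obese mice that carried a breast tumor. All libraries labelled obese were used, which were 13 of the 23 in the series: 8 from mice given anti-PD-1 and 5 from mice given the IgG2a isotype control antibody. The animals were female C57BL/6J mice that ate food with 60% of its energy as fat from 8 to 26 weeks of age. E0771 cells carrying luciferase, a mouse mammary carcinoma line, were placed in mammary gland 4 (250000 cells per mouse in matrigel). Antibody (200 µg, into the peritoneum) was given every 3 days starting on day 3 until the mice were killed on day 21. Every mouse of both groups therefore had the tumor, the high-fat food and an injected antibody, and neither group is free of tumor or of antibody. The tissue was fat beside the tumor, so the RNA is that of a mixture of cells, in which fewer cells of a type and less RNA per cell cannot be told apart. The 10 libraries from lean mice (5 per antibody, food with 10% of its energy as fat) were used to share the estimate of the spread and to test whether the effect differed in obese mice.

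PD-1 is an inhibitory receptor on activated T cells. Its ligand PD-L1, the product of Cd274, is made by tumor cells, myeloid cells and many cells exposed to interferon, and antibodies that block the receptor release T cells from this inhibition. Obese fat tissue holds many macrophages beside its enlarged fat cells, and the inguinal fat pad also holds a lymph node and milk ducts. Genes of cell division are transcribed in dividing cells of any type, in tumor, lymph node and bone marrow alike, and are low in resting fat tissue.

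Genes of cell division had lower levels with anti-PD-1, as described below. However, 0 genes passed the adjusted threshold once liver and lymph node tissue were taken into account. The promoters of 3 cell division genes are shown because they share short elements. Promoters of genes used late in the cell cycle are known for the cell cycle homology region (CHR), here searched as TTTGAA, and for the CCAAT box, here searched as CCAAT, each on both strands. The windows run from 250 bases before to 50 bases after the start site (RefSeq, GRCm38.p6), and capitals mark both elements. Ube2c (chr2:164769679-164769978, plus strand) has 1 CHR and 6 CCAAT matches, with 2 of the latter sharing bases. Plk1 (chr7:122159185-122159484, plus strand) has 1 of each. Top2a (chr11:99024140-99024439, minus strand) has 2 and 6.
Ube2c: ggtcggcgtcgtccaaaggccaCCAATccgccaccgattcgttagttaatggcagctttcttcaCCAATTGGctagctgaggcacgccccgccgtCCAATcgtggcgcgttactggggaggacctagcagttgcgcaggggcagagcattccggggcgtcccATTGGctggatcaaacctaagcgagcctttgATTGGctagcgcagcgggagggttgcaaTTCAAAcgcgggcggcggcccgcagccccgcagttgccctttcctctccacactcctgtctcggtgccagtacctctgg
Plk1: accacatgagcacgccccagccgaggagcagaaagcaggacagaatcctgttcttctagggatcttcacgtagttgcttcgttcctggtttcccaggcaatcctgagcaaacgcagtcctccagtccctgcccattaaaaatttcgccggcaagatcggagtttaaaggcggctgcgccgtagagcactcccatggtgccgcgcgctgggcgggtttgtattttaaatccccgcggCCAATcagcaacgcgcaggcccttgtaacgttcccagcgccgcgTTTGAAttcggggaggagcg
Top2a: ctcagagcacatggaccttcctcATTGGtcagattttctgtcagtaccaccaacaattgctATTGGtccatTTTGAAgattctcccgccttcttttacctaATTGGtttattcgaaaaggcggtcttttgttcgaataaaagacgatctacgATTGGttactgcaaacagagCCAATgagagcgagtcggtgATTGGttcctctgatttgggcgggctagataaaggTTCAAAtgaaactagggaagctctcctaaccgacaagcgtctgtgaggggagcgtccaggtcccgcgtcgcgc
Of the 18 genes in a list of cell division genes, 15 had a window in the table. The CHR letters stood in 9 of these 15 (60.0%), against 17.9% of all 32851 windows of this length. CCAAT stood in 14 of 15 (93.3%) against 37.4%. Both stood in 9 of 15 against 6.95%. These are matches of letters, and no binding was measured.

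Tissue carried along with the fat differed between libraries of the same group, and touches most results. Libraries are numbered within each group in the order of deposit. Glycam1, a mucin of lymph node vessels, marked 4 libraries with lymph node. It was at 1326 and 1917 CPM (counts scaled to the total of the library) in IgG2a 1 and 3. In anti-PD-1 3 and 4 it was at 647 and 630 CPM, and in the other 9 at most 0.498 CPM. Alb, the serum albumin gene of the liver, was 6931 CPM in IgG2a 5 and 6.56 to 72.8 CPM in the other 12. Of 22 liver genes, up to 14 were at 0 in an anti-PD-1 library and up to 10 in an IgG2a library, and their summed level (in CPM scaled by TMM, used for every level from here on) was 13170 in IgG2a 5 and 38 to 372 elsewhere. Skeletal muscle genes summed to 464 in IgG2a 3 and to between 16 and 81.2 in the other libraries. A list of 10 tumor-like genes, which dividing or stressed normal cells can also express, summed to 250, 1204, 341, 495 and 1405 in IgG2a 1 to 5 and to 155 to 526 (median 270) in the anti-PD-1 libraries. IgG2a 2 and 5 thus stood above all 11 others in tumor-like genes. Fat cell genes, which define the labelled tissue, were abundant in every library, from 7386 to 62535 with anti-PD-1 and from 15305 to 45377 with IgG2a. The libraries held 50204192 to 72943643 estimated counts, with 16690 to 18403 genes at 10 counts or more.

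**Figure D1:**
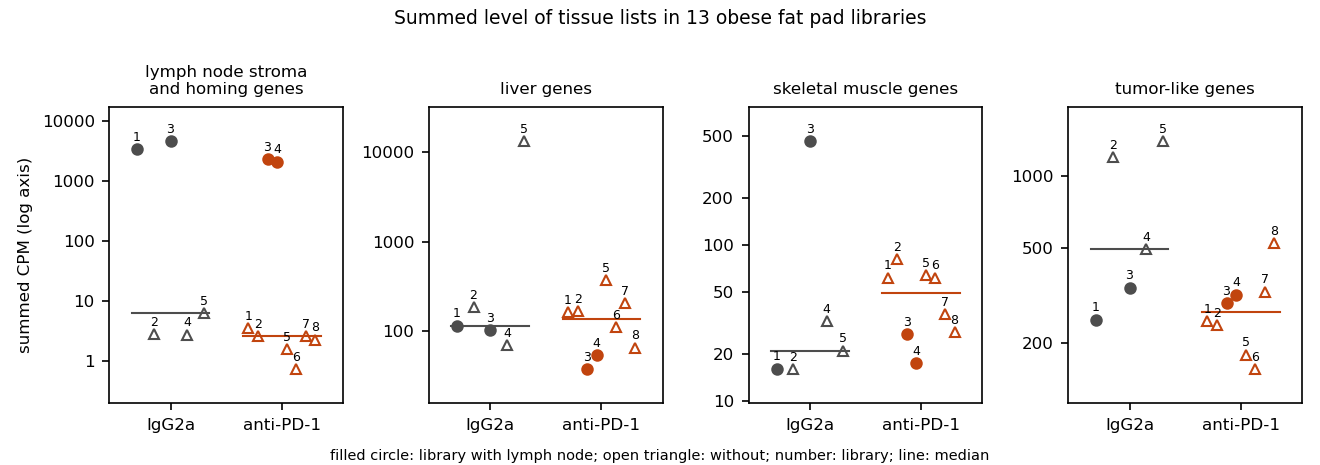
Summed CPM of 4 tissue lists in each obese library, on log axes, by antibody. Filled circles are the 4 libraries with lymph node, triangles the others, numbers name the library within its group, and lines are group medians. IgG2a 5 stands alone in liver genes at 13170, IgG2a 3 in muscle genes at 464, and IgG2a 2 and 5 are highest in tumor-like genes.

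Of 19882 genes tested with all libraries, 106 fell under anti-PD-1 (0.533%) and 1, Lynx1, rose (0.00503%), by edgeR's quasi-likelihood test at a Benjamini-Hochberg adjusted p under 0.05 (smallest 0.0328). Among those that fell were 13 of 22 liver genes, 4 of 10 tumor-like genes and 2 of 12 hypoxia genes. So were 1 of 18 cell division genes and 1 of 15 lipid-associated macrophage genes, while most belonged to none of these lists. Of the 106, 94 were highest in IgG2a 5 and 10 in IgG2a 2, and 45 were over 10 times higher in IgG2a 5 than in the next library. Only 1 of them, H2-Q10, was lower in all 8 anti-PD-1 libraries than in all 5 IgG2a libraries. Without the liver library (IgG2a 5) 0 genes were called (704 higher and 1263 lower at an unadjusted p under 0.05), although all 107 kept their direction there. With only the obese libraries in the fit, 0 were called as well (smallest adjusted p 0.274, with 542 higher and 1180 lower at an unadjusted p under 0.05).

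Apob, the structural protein of lipoproteins, is not on the list of 22 liver genes. It was at 0.734, 0.961, 0.9, 0 and 740 CPM in IgG2a 1 to 5, and between 0 and 0.16 CPM (median 0.0382) with anti-PD-1. IgG2a 5 was far above every other library, and without it and with a lymph node term the log2 fold change was -3.35 (SE 1.41, unadjusted p = 0.027). With all libraries the median log2 fold change of the 22 liver genes was -8.07, against -0.00 over all genes tested. With the liver library left out and a lymph node term the median was -3.25, from summed levels of 70.2 to 185 CPM in the other IgG2a libraries and 38 to 372 CPM with anti-PD-1, and 12 of 22 were lower at an unadjusted p under 0.05. Also without IgG2a 2 it was -0.90, with 1 of 22. H2-Q10 encodes a secreted class I molecule that the liver makes in quantity. Its IgG2a levels were 40.8, 27.9, 41.9, 23.5 and 148 CPM, and with anti-PD-1 it ran from 2.97 to 21.8 CPM (median 14.8). It fell by 2.04 log2 units (SE 0.42, adjusted p = 0.0374), and was -1.19 without the liver library (SE 0.35, unadjusted p = 0.0024).

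Both sources of other tissue were therefore taken into account in a second fit, which left out the liver library (IgG2a 5) and had a term for lymph node. The term held only whether lymph node was present, and its amount was not modelled. Glycam1 was higher in both IgG2a libraries with lymph node than in both anti-PD-1 libraries with it. This fit compared 8 anti-PD-1 with 4 IgG2a libraries. Of 20315 genes, 0 were called by edgeR's quasi-likelihood test (smallest adjusted p 0.176). At an unadjusted p under 0.05, 1431 genes were lower (7.04%) and 792 higher (3.9%). DESeq2 called 134 on the same libraries, 109 of them lower, while voom with quality weights called 0 and limma on log2 TPM called 1. All log2 fold changes given below are from this fit unless another is named, and none of them passed its adjusted threshold.

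Cell division genes were lower with anti-PD-1 throughout their list. All 18 members had a negative log2 fold change, with a median of -2.47 against 0.03 over all genes tested, and 17 of 18 had an unadjusted p under 0.05. The exception was Mki67, the antigen used to stain dividing cells (-0.97, SE 0.55, edgeR's unadjusted p = 0.091). The summed level of the list was 604, 988, 931, 186 and 1381 CPM in IgG2a 1 to 5, and 90.1 to 590 CPM (median 118) with anti-PD-1. With IgG2a the highest sums were in IgG2a 5 and 2, which had no lymph node. Under anti-PD-1, lymph node moved with these genes, since the libraries with it had 478 and 590 CPM and the 6 without it had 90.1 to 125. Libraries were therefore also compared within those with lymph node (2 against 2) and within those without (6 against 3). Among those with lymph node, Glycam1 was higher in both IgG2a libraries, so the amount of lymph node may still differ by antibody. In both sets every anti-PD-1 library was below every IgG2a library for 8 of the 18 members (Aurka, Birc5, Bub1, Ccnb2, Cdk1, Cenpf, Plk1 and Rrm2), as it was for 0.785% of all genes tested. No member was higher in both sets (0.372% of all genes).

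Ube2c, the ubiquitin-conjugating enzyme that serves the anaphase-promoting complex, is not on the list and showed the same pattern. It was at 41.4, 66.4, 57.9, 12.2 and 56.5 CPM in IgG2a 1 to 5 and from 2.86 to 22.4 CPM (median 5.92) with anti-PD-1. The 2 anti-PD-1 libraries with lymph node were the highest of their group, at 22.4 and 21.5 CPM, and lay below the IgG2a libraries with lymph node. The groups overlapped in IgG2a 4, which was below both. Its log2 fold change was -2.26 (SE 0.42, unadjusted p = 2.2e-05), and with all libraries -2.30 (SE 0.55, adjusted p = 0.0526).

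Plk1, a kinase that drives entry into mitosis, was at 16.5, 33.9, 25.1, 5.03 and 35.4 CPM in IgG2a 1 to 5 and from 0.698 to 14.1 CPM (median 1.65) with anti-PD-1. The same 2 anti-PD-1 libraries overlapped IgG2a 4. The log2 fold change was -2.74 (SE 0.61, unadjusted p = 1.7e-04). Top2a, the topoisomerase that untangles replicated DNA, was at 52.7, 193, 90.4, 24.2 and 372 CPM with IgG2a and from 3.28 to 61.7 CPM (median 9.08) with anti-PD-1. Here anti-PD-1 3 also exceeded IgG2a 1, so the libraries with lymph node overlapped. The log2 fold change was -2.88 (SE 0.63, unadjusted p = 1.8e-04).

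Aurka, the kinase of the spindle poles, was the 1 member of the list that fell with all libraries (-2.13, SE 0.47, adjusted p = 0.0436). Its levels were 11.7, 28.8, 19.9, 6.04 and 27.5 CPM with IgG2a and 1.26 to 8.93 CPM (median 3.77) with anti-PD-1. Cks1b, a small subunit that binds cyclin-dependent kinases, also fell with all libraries (-1.25, SE 0.24, adjusted p = 0.0328). Its levels were 43.7, 65.5, 44.9, 19.6 and 38.4 CPM with IgG2a and 12.1 to 28.4 CPM (median 17.8) with anti-PD-1. IgG2a 4 again lay among the anti-PD-1 libraries. Pimreg, a regulator of the metaphase to anaphase transition that belongs to no list, was at 0.483 to 3.64 CPM (median 1.76) in all 8 anti-PD-1 libraries. It was at 3.70 to 27.7 CPM in all 5 IgG2a libraries, so the groups separated by a narrow margin. With all libraries it did not pass (-2.71, SE 0.69, edgeR's adjusted p = 0.0666). Complete separation of this kind occurred in 0.0553% of genes downward (11) and 0.0553% upward (11).

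**Figure D2:**
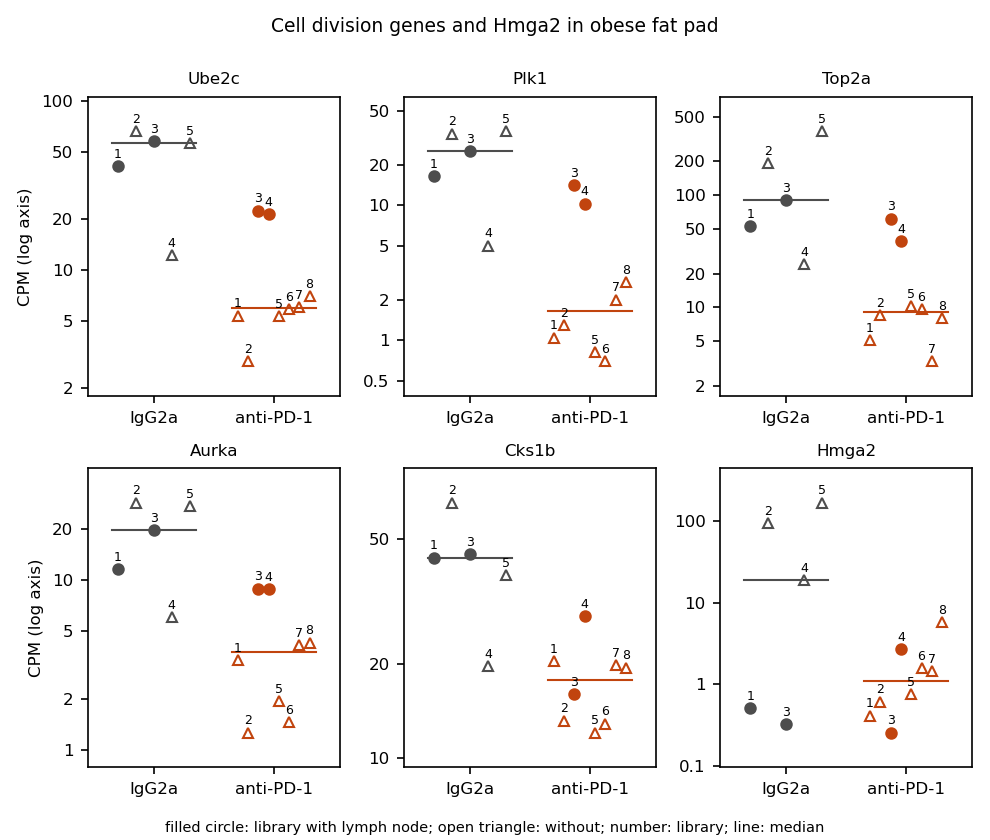
CPM (log axes) of 5 cell division genes and Hmga2 in each obese library by antibody, with the same symbols as the plot of tissue lists. For Ube2c, Plk1 and Aurka the anti-PD-1 libraries with lymph node lie below both IgG2a libraries with lymph node, and those without it lie below the 3 IgG2a libraries without it. Hmga2 is high only in IgG2a 2, 4 and 5.

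The size of this difference rested in part on IgG2a 2, the library with high tumor-like genes that stayed in the fit. Without it the median of the 18 members was -0.96, and 7 of 18 had an unadjusted p under 0.05 and were lower, against 1.89% of all genes. Ube2c was then -1.28 and Plk1 -1.38. In the libraries without lymph node alone (6 anti-PD-1 and 2 IgG2a) the median was -3.41, and all 37 genes called there (adjusted p under 0.05) were lower and highest in IgG2a 2, with 4 members of the list among them. How much of the difference came from tumor cells in a library was not tested.

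Tumor-like genes had a median log2 fold change of -1.88, with 7 of 10 lower at an unadjusted p under 0.05 and 4 of 10 called with all libraries. Hmga2, a chromatin protein of embryonic and tumor cells, was at 0.51, 94.2, 0.323, 19 and 170 CPM in IgG2a 1 to 5 and at 0.256 to 5.84 CPM (median 1.10) with anti-PD-1. It was near 0 in the IgG2a libraries with lymph node, which lay among the anti-PD-1 libraries, and so did not share the pattern of the cell division genes. With all libraries it fell by 5.06 log2 units (SE 1.03, adjusted p = 0.0373), and without both IgG2a 2 and 5 the log2 fold change was -1.76. Fosl1, a subunit of the AP-1 transcription factor, fell with all libraries by 4.03 (SE 0.93, adjusted p = 0.0498), and Hmga1, a relative of Hmga2, fell by 2.27 (SE 0.46, adjusted p = 0.0359). Spp1, the secreted phosphoprotein osteopontin made by tumor cells and macrophages, fell by 3.60 (SE 0.82, adjusted p = 0.0498), from 5.23, 177, 6.37, 31.5 and 328 CPM to 1.80 to 27.9 CPM (median 6.11). In these 4 genes IgG2a 2 and 5 were the highest libraries, and IgG2a 4 was the next of its group for Hmga2, Fosl1 and Spp1. They are not the same 4 as the called members of the list, which include Slc2a1, given below. The list's median was -0.69 without IgG2a 2.

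Genes of hypoxia and glucose use had a median of -0.59, with 5 of 12 lower at an unadjusted p under 0.05, and of -0.32, with 1 of 12, also without IgG2a 2. Slc2a1, the glucose carrier GLUT1 (also a member of the tumor-like list), was at 32.3, 116, 41.3, 54 and 149 CPM with IgG2a and at 17.4 to 42.4 CPM (median 24.6) with anti-PD-1. It fell with all libraries by 1.52 (SE 0.30, adjusted p = 0.0328), and the log2 fold change was -1.16 with tissue accounted for and -0.56 also without IgG2a 2. Egln3, an oxygen-sensing hydroxylase, fell with all libraries by 1.85 (SE 0.40, adjusted p = 0.0421). Odc1, the first enzyme of polyamine synthesis, fell by 2.23 (adjusted p = 0.0328), from 168, 827, 172, 195 and 1265 CPM to 74.8 to 181 CPM (median 112). In these genes too the highest libraries were IgG2a 2 and 5.

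Genes of the first complement component showed a different pattern. C1qa, C1qb and C1qc encode the chains of C1q, which tissue macrophages make, and lie together on GRCm38 chromosome 4 between 136880129 and 136898803. C1qa was at 258, 139, 260, 59.6 and 70.4 CPM in IgG2a 1 to 5 and at 44.9 to 123 CPM (median 57.1) with anti-PD-1. The highest were the IgG2a libraries with lymph node, not those with tumor-like genes, and IgG2a 4 and 5 lay among the anti-PD-1 libraries. The log2 fold change was -1.15 (SE 0.26, unadjusted p = 2.3e-04) and -1.08 without IgG2a 2.

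C1qb was at 165, 142, 177, 74.8 and 71 CPM with IgG2a and at 42.8 to 96.6 CPM (median 70.3) with anti-PD-1, with a log2 fold change of -1.02 (SE 0.23, unadjusted p = 2.0e-04). C1qc was at 124, 110, 157, 51.3 and 58.8 CPM with IgG2a and at 30.4 to 89.5 CPM (median 49.6) with anti-PD-1 (-0.95, SE 0.22, unadjusted p = 3.2e-04). Among libraries with lymph node all 3 chains were lower in both anti-PD-1 libraries than in both IgG2a libraries, while those without it overlapped. The other 9 members of the complement list had an unadjusted p of 0.05 or more in edgeR's test in the same fit. All 12 members, the C1q chains included, had a median of -0.12, with 9 of 12 lower. Also without IgG2a 2 the median was -0.26, with 11 of 12 lower and 4 of 12 at an unadjusted p under 0.05. C3, the central component, was at 0.01 (SE 0.37).

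Macrophage genes were lower in 13 of 15 members with a median of -0.49, and 4 of 15 had an unadjusted p under 0.05. Also without IgG2a 2 the median was -0.38, with 1 of 15. Fcgr1, a high-affinity receptor for immunoglobulin G, was at 6.94, 28.8, 15.3, 7.62 and 29.1 CPM with IgG2a and at 2.85 to 13.3 CPM (median 5.25) with anti-PD-1 (-1.35, SE 0.44, unadjusted p = 0.0056). In all, 6 of the 8 anti-PD-1 libraries were below every IgG2a library. Itgam, the integrin CD11b of myeloid cells, was highest in IgG2a 2 and 5 (70.8 and 90 CPM, against 13.7 to 40.4 elsewhere), and its log2 fold change moved from -0.90 to -0.36 without IgG2a 2. Pla2g7, the platelet-activating factor acetylhydrolase secreted by macrophages, fell with all libraries by 1.58 (SE 0.32, adjusted p = 0.0359). It was lower within both tissue sets, from 42.4, 73.7, 40.3, 21.4 and 76.8 CPM with IgG2a to 9.81 to 33.7 CPM (median 13.5) with anti-PD-1. This held for 0 of the 15 macrophage genes, a list without Pla2g7, and for 0.785% of all genes tested. It also held for 0 of the 15 lipid-associated macrophage genes. Adgre1, which encodes the macrophage marker F4/80, was at -0.29 (SE 0.32), and Trem2, a lipid receptor of macrophages in obese fat, at -0.39 (SE 0.48). Lipid-associated macrophage genes had a median of -0.01 over 15 members, and 1 of 15 was called lower with all libraries.

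Type I interferon-induced genes were lower in 21 of 21 members, with a median of -0.78. At an unadjusted p under 0.05, 9 of 21 were lower, against 7.04% of all genes tested. Within both tissue sets, every anti-PD-1 library was below every IgG2a library for 1 of 21 members, and for 0.785% of all genes tested. Bst2, the membrane tether tetherin, was at 205, 148, 249, 73.7 and 67.5 CPM in IgG2a 1 to 5 and at 17.8 to 139 CPM (median 68.8) with anti-PD-1. Anti-PD-1 5 and 6 were lowest and the groups overlapped widely (-1.19, SE 0.37, unadjusted p = 0.0040). Oas1a, an enzyme that senses double-stranded RNA, was at 25.5, 34.9, 44, 19.5 and 34 CPM with IgG2a and at 8.09 to 22.3 CPM (median 11.8) with anti-PD-1, with only IgG2a 4 below the highest anti-PD-1 libraries (-1.08, SE 0.38, unadjusted p = 0.0094). The median of the list was -0.64 without IgG2a 2, with 4 of 21 members lower at an unadjusted p under 0.05, and -1.01 in the libraries without lymph node.

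**Figure D3:**
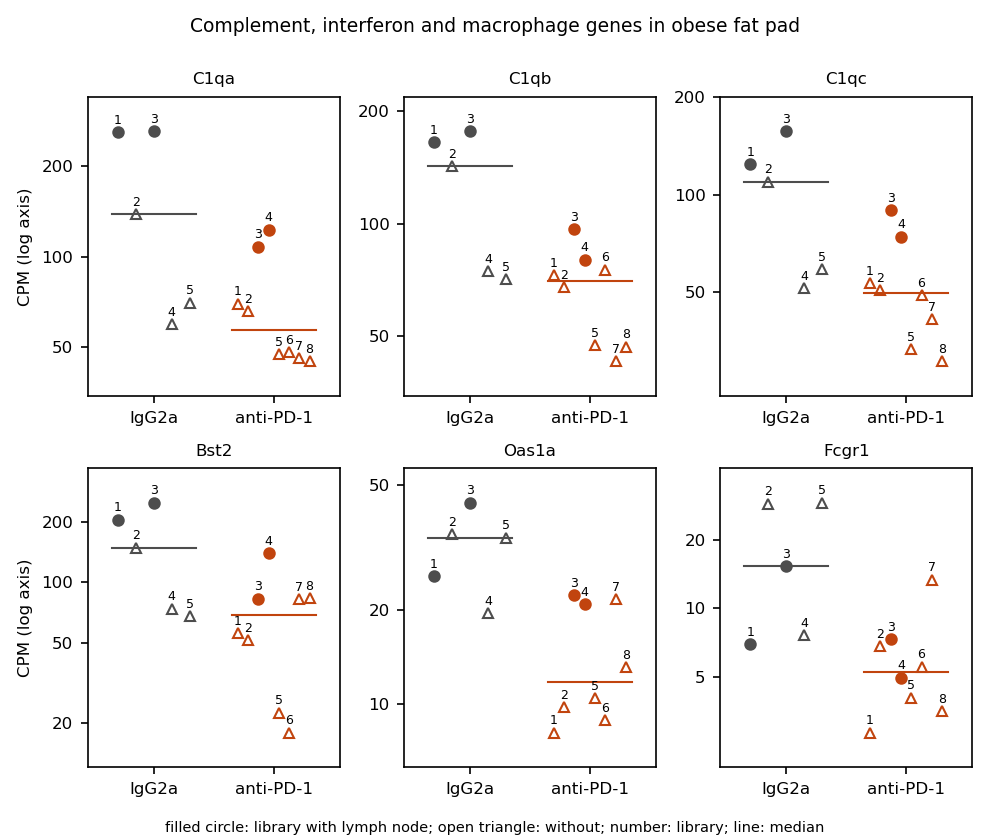
CPM (log axes) of C1q, interferon-induced and macrophage genes in each obese library by antibody, with symbols as in the plot of tissue lists. C1qa is highest in IgG2a 1 and 3 (258 and 260 CPM) and Fcgr1 in IgG2a 2 and 5 (28.8 and 29.1 CPM), and in each gene IgG2a 4 lies among the anti-PD-1 libraries.

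Genes of antigen presentation by MHC class I were lower in 12 of 12 members with a small median of -0.31, and 3 of 12 had an unadjusted p under 0.05 (-0.34 and 1 of 12 without IgG2a 2). Within both tissue sets 0 of 12 separated by antibody. Genes induced by interferon-gamma had a median of -0.19 (2 of 18), and of -0.05 (0 of 18) without IgG2a 2. The chemokine Cxcl10 was at 16.9, 24.9, 11.9, 6.31 and 14.3 CPM with IgG2a and at 2.40 to 17.8 CPM (median 5.31) with anti-PD-1, a log2 fold change of -1.17 (SE 0.47, unadjusted p = 0.021) that was -0.21 without IgG2a 2. Chemokines and receptors of monocytes had a median of -0.44 (3 of 14), and of -0.19 (1 of 14) without IgG2a 2. Neutrophil genes had a median of -0.95, but only 1 of 16 was lower at an unadjusted p under 0.05, against 7.04% of all genes tested. It was Mmp9, the gelatinase of neutrophil granules, at 13.8, 6.43, 14.3, 5.24 and 6.26 CPM with IgG2a and 1.01 to 5.30 CPM (median 4.06) with anti-PD-1 (-1.35, SE 0.48, edgeR's unadjusted p = 0.010). All but the highest anti-PD-1 library lay below every IgG2a library.

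No gene of the checkpoint and T cell lists passed the adjusted threshold. Pdcd1, which encodes PD-1, followed the lymph node. It was at 10.9, 0.801, 11, 0.0748 and 0.989 CPM in IgG2a 1 to 5, and at 9.45 and 5.66 CPM in the anti-PD-1 libraries with lymph node and at most 0.307 CPM in the other 6. Its log2 fold change was -1.73 (SE 0.86, unadjusted p = 0.058). Cd274, the gene of PD-L1, was at 25.6, 37.5, 27.6, 37.6 and 32 CPM with IgG2a and at 23.6 to 51 CPM (median 27.9) with anti-PD-1. Its log2 fold change of -0.03 (SE 0.19) changed sign under several settings.

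Cd8a, a co-receptor chain of cytotoxic T cells, was at 111 and 145 CPM in the IgG2a libraries with lymph node and at most 2 CPM in the other 3. With anti-PD-1 it was at 145 and 124 CPM with lymph node and at most 1.84 CPM without (-0.33, SE 0.43). Ifng, the interferon of activated T and natural killer cells, was between 0 and 0.934 CPM in all 13 libraries, and the groups overlapped. Of 20 checkpoint genes, 1 was lower at an unadjusted p under 0.05, against 7.04% of all genes tested. That gene was Tnfrsf9, the co-stimulatory receptor 4-1BB. It was at 11.9, 7.03, 15, 3.20 and 6.02 CPM with IgG2a and at 0.233 to 21.9 CPM (median 0.961) with anti-PD-1. Its 6 anti-PD-1 libraries without lymph node lay below every IgG2a library, and the 2 with lymph node were at 21.9 and 14.5 CPM (-1.62, SE 0.60, edgeR's unadjusted p = 0.013). The medians were -0.40 for checkpoint genes, -0.28 for 18 T cell genes (0 at an unadjusted p under 0.05), -0.39 for 16 cytotoxic genes (0) and -0.02 for 10 regulatory T cell genes (0). Without IgG2a 2 they were -0.05, -0.24, 0.20 and 0.29, so that the sign of the cytotoxic and regulatory lists turned. Dendritic cell genes had a median of -0.08, B cell genes of -0.24, antibody genes of -0.18, MHC class II genes of -0.21 and lymph node stroma genes of -0.70. In the libraries without lymph node (6 anti-PD-1 and 2 IgG2a) the median was -1.01 for B cell genes (11 of 12 lower). Their sums were low there, at 4.62 to 5.70 CPM with anti-PD-1 and 12.7 and 10.2 CPM in IgG2a 2 and 4. Antibody genes had a median of 1.78 there (9 of 12 higher), with 2 members higher and 2 lower at an unadjusted p under 0.05. Lymph node stroma genes had one of 0.06. Dendritic cell genes turned to 0.16 without IgG2a 2.

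**Figure D4:**
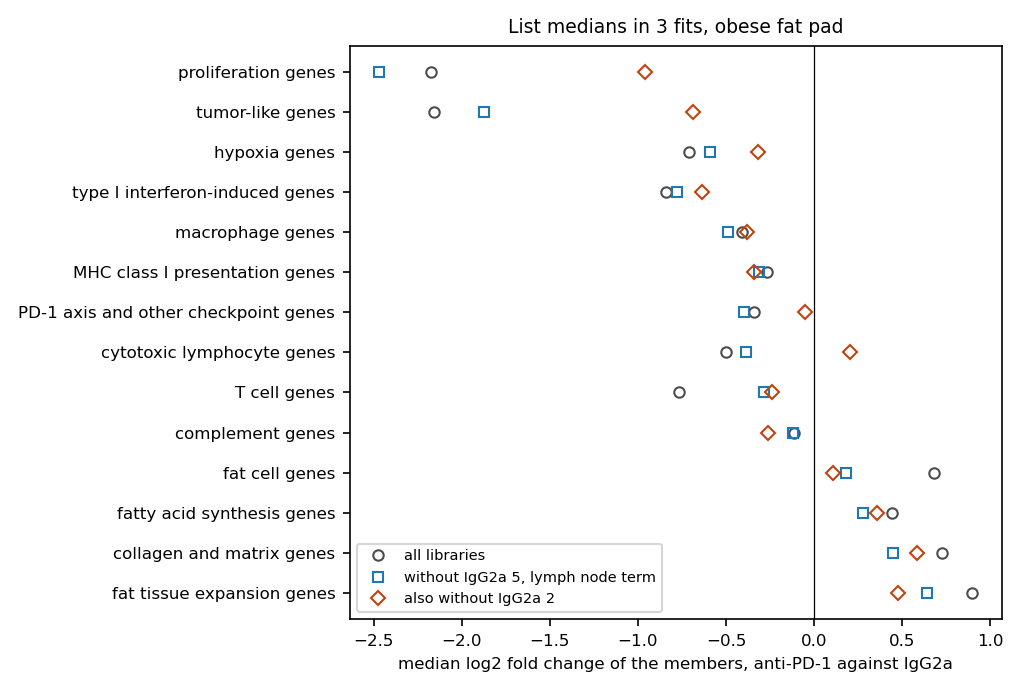
Median log2 fold change (anti-PD-1 against IgG2a) of 14 gene lists in 3 fits: all libraries, without the liver library and with a lymph node term, and also without IgG2a 2. The proliferation list, which is the cell division list of the text, moves from -2.47 to -0.96 without IgG2a 2, while the type I interferon list moves from -0.78 to -0.64.

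Mogat2, Dgat2 and Lep were among the genes with higher levels under anti-PD-1, none of which passed the adjusted threshold. Mogat2, which adds the second fatty acid to monoacylglycerol, was at 0.39, 2.72, 0.45, 2.25 and 1.96 CPM in IgG2a 1 to 5 and at 0.938 to 24.3 CPM (median 12.1) with anti-PD-1. The 2 anti-PD-1 libraries with lymph node were lowest, at 0.938 and 1.40 CPM, yet above both IgG2a libraries with lymph node, and the other 6 were above all IgG2a libraries. The log2 fold change was 2.46 (SE 0.55, unadjusted p = 2.0e-04), and 2.63 without IgG2a 2. Dgat2, which completes the triglyceride, was at 297, 794, 139, 1071 and 463 CPM with IgG2a and at 187 to 4487 CPM (median 2150) with anti-PD-1 (1.37, SE 0.43, unadjusted p = 0.0044). Its 6 anti-PD-1 libraries without lymph node were above every IgG2a library.

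Lep, the satiety hormone of fat cells (GRCm38 chromosome 6, 29060220 to 29073877), was at 416, 1609, 195, 3144 and 868 CPM with IgG2a. With anti-PD-1 it was at 286 and 830 CPM in the libraries with lymph node and at 2480 to 6810 CPM in the others. The IgG2a library that overlapped the latter was IgG2a 4. The log2 fold change was 1.23 (SE 0.46, unadjusted p = 0.015). Adipoq, the gene of adiponectin and a general measure of fat cell RNA, was at 1140, 1871, 688, 2671 and 915 CPM with IgG2a and at 306 to 3376 CPM (median 2085) with anti-PD-1, a log2 fold change of 0.05 (SE 0.35). Apln, the vasoactive peptide apelin, was at 0.57, 7.85, 2.12, 13.1 and 5.29 CPM with IgG2a and at 2.49 to 30.7 CPM (median 15.1) with anti-PD-1 (1.22, SE 0.48, unadjusted p = 0.018).

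The fat cell list had a median of 0.68 with all libraries and 0.18 without the liver library and with a lymph node term (0 of 16 at an unadjusted p under 0.05). Fatty acid synthesis genes had a median of 0.28 (0 of 18), lipolysis genes of 0.22 (1 of 12 higher) and thermogenic genes of 0.66 (2 of 14 higher and 1 lower). Genes of fat tissue expansion had a median of 0.64, with Lep the only one of 10 at an unadjusted p under 0.05. Adipokine genes had a median of 0.05 (Lep and Apln, of 15), oxidative phosphorylation genes of -0.23 (1 of 22, lower) and cholesterol synthesis genes of -0.03 (2 higher and 2 lower of 17), the last of 0.27 without IgG2a 2.

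Collagen and matrix genes were higher in 17 of 22 members, with a median of 0.45 and 3 of 22 at an unadjusted p under 0.05. Col4a2, a chain of basement membrane collagen, was at 101, 784, 98.2, 1304 and 658 CPM with IgG2a and at 163 to 2537 CPM (median 1626) with anti-PD-1 (1.04, SE 0.43, unadjusted p = 0.025). The 4 libraries with lymph node were the lowest 4. Fibroblast genes had a median of -0.00, endothelial genes of 0.22, mammary epithelium genes of 0.34 (0 of 15), epidermis genes of 0.19 and muscle genes of -2.67 (0 of 13), the last with IgG2a 3 as the high library. In the libraries without lymph node, where that library is absent, the muscle median was 1.17. Circadian clock genes had a median of 0.19, glucocorticoid-responsive genes of 0.21 and immediate early genes of -0.04. Epidermis genes (-0.04) and immediate early genes (0.04) changed sign without IgG2a 2.

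Some genes outside the lists were higher under anti-PD-1 with less overlap. Lynx1, a modulator of nicotinic acetylcholine receptors, was at 21, 19.2, 22.6, 30.4 and 13.8 CPM with IgG2a and at 27.5 to 66.8 CPM (median 38.9) with anti-PD-1. It rose with all libraries (0.99, SE 0.23, adjusted p = 0.0498), and was at 0.79 (SE 0.21, unadjusted p = 0.0011) with tissue accounted for. In the fit with all libraries its log2 fold change in lean mice was 0.55 (SE 0.24). The difference between obese and lean mice in that fit was 0.44 (SE 0.33, edgeR's unadjusted p = 0.19). Tnfrsf21, the death receptor 6, was at 22.1, 28.5, 25.1, 37.1 and 31.6 CPM with IgG2a and at 27 to 79.4 CPM (median 53.4) with anti-PD-1 (0.83, SE 0.21, unadjusted p = 6.4e-04).

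Tnfrsf21 and Alcam, a cell adhesion molecule that binds CD6 on T cells, were higher within both tissue sets. Alcam was at 35.5, 45.2, 17.1, 65.1 and 39 CPM with IgG2a and at 36.6 to 159 CPM (median 93.4) with anti-PD-1 (0.94, SE 0.25, unadjusted p = 0.0010). Snx11, a sorting nexin of endosomes, was in all 8 anti-PD-1 libraries (32.8 to 41.7 CPM, median 36.7) above all 5 IgG2a libraries (26.3, 23.2, 27.3, 31.9 and 16.1 CPM), with a log2 fold change of 0.46 (SE 0.13, unadjusted p = 0.0014).

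**Figure D5:**
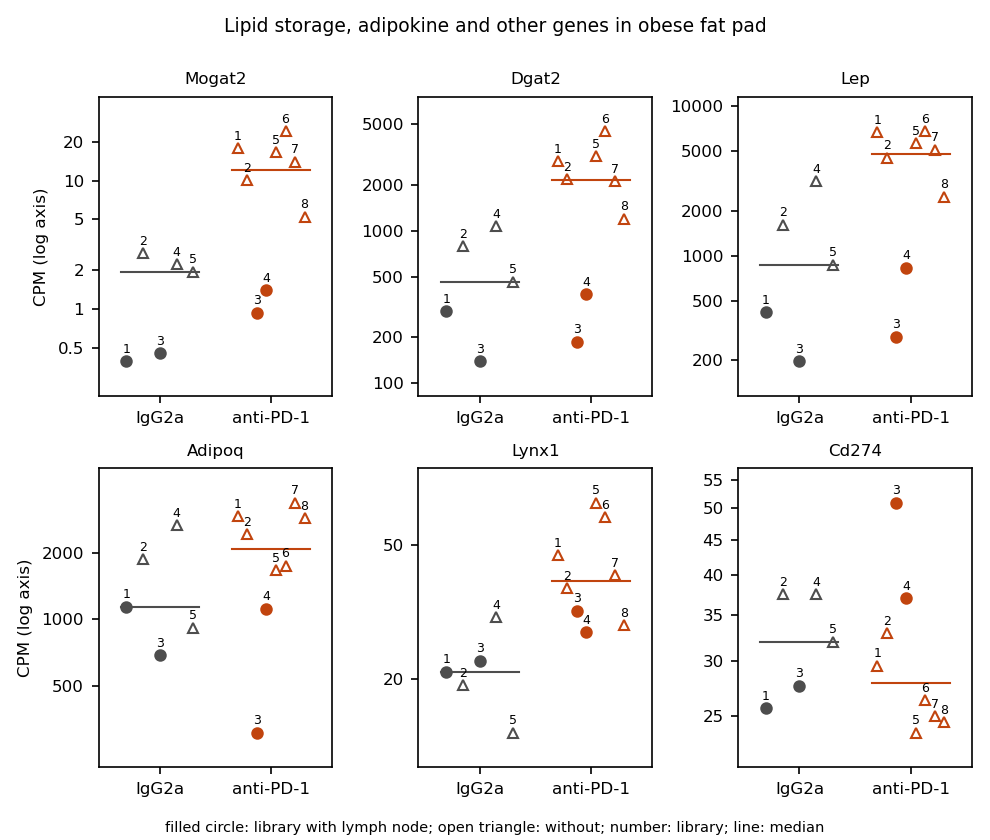
CPM (log axes) of Mogat2, Dgat2, Lep, Adipoq, Lynx1 and Cd274 in each obese library by antibody, with symbols as in the plot of tissue lists. In Mogat2, Dgat2 and Lep the libraries with lymph node are low in both groups, and the 6 anti-PD-1 libraries without it reach 24.3, 4487 and 6810 CPM. Adipoq and Cd274 overlap between the groups.

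Whether the effect of anti-PD-1 was particular to obese mice was tested as the difference between its effects in obese and in lean mice. Of 19882 genes, 0 were called by edgeR's quasi-likelihood test (smallest adjusted p 0.396), with 584 higher and 865 lower (4.35%) at an unadjusted p under 0.05. DESeq2 called 50 and voom with quality weights 623. In lean mice alone anti-PD-1 changed 0 genes (158 higher and 314 lower at an unadjusted p under 0.05). These counts, and the log2 fold changes and differences in the next paragraphs, are from all libraries without a lymph node term. Lymph node was in 4 of 5 lean IgG2a and 3 of 5 lean anti-PD-1 libraries. Without the liver library and with that term, 0 differences were called (1167 higher and 1090 lower at an unadjusted p under 0.05). In lean mice that fit called 0 genes as well (280 higher and 755 lower). Nothing above can therefore be called particular to obese mice by the test of the difference.

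Side by side, the cell division list had a median of -0.08 in lean mice and a difference of -2.19, with 6 of 18 members lower at an unadjusted p under 0.05. Aurka had a log2 fold change of 0.24 in lean mice (SE 0.52) and a difference of -2.37 (SE 0.71, unadjusted p = 0.0028). The type I interferon list had a median of 0.24 in lean mice and a difference of -1.08, with 7 of 21 members. Tumor-like genes had 0.11 and -2.13, with 7 of 10 members lower and 1 higher. All these differences include the liver library, IgG2a 5, which is also 1 of the 2 with high tumor-like genes.

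The genes of smallest p in this test were Apoa2, Slc9a2 and Impa2 downward. Apoa2 is a liver apolipoprotein that was at 369 CPM in IgG2a 5. Slc9a2, a sodium-proton exchanger, was at 45.9 and 105 CPM in IgG2a 2 and 5 and at most 9.60 CPM elsewhere. Impa2, an inositol monophosphatase, had a difference of -1.73 (SE 0.41, unadjusted p = 3.4e-04), and was at 15.7, 20.3, 11.1, 5.69 and 18.9 CPM with IgG2a and at 3.52 to 8.54 CPM with anti-PD-1 in obese mice. Upward they were Spsb1, which encodes an adaptor of a ubiquitin ligase (1.25, SE 0.34, unadjusted p = 0.0013), Tmem230 (0.68, SE 0.19, 0.0018) and Cdkl4 (4.87, SE 1.40, 0.0021). Spsb1 was lower with anti-PD-1 in lean mice (-0.70, SE 0.25) and higher in obese mice (0.55), so that both parts made up the difference. Leptin had a log2 fold change of -0.71 in lean mice (SE 0.73) and a difference of 2.42 (SE 1.01, unadjusted p = 0.025).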

How the data were processed

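Per the labels' protocols, the kit selected poly(A) RNA and kept no strand. The deposited files give estimated counts per transcript (not normalized) and TPM, which the authors' program scaled to the same total in each library; which program that was is not stated in the labels or headers. The submitters' processing notes name edgeR, limma and GRCm38. Of 115088 transcripts, 114200 matched GENCODE M21; the other 888 held at most 0.208% of a library's counts. Estimated counts were summed per gene (47311) and rounded. Genes were kept by filterByExpr (minimum count 10), scaled by TMM and fitted with edgeR 4.0.16 (R 4.3.3, robust quasi-likelihood, two-sided, Benjamini-Hochberg, threshold 0.05). The first fit used all 23 libraries with 1 mean per group. The second left out libraries with Alb above 1000 CPM and added a term for Glycam1 at or above 10 CPM. SE is the size of the log2 fold change divided by the square root of F. Levels are CPM on TMM-scaled library sizes. The labels give no batch, pairing or cage, and p-values measure the spread between mice.

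The libraries, the 38 gene lists (525 members, 1 unmatched) and the tests were chosen with earlier results of these data known. Genes were named by a rule: the 12 called genes of largest change (or of smallest p) in each direction with a mean of 4 CPM or more, 3 per direction for the difference between obese and lean mice, 2 of smallest p per list, and Pdcd1, Cd274, Cd8a, Ifng, Lep, Adipoq, Glycam1 and Alb. The text describes a part of these. Aurka, Birc5, Bub1, Ccnb2, Cdk1, Cenpf, Rrm2, Mki67, C1qc, C3, Adgre1, Trem2, Hmga2, Fosl1, Dgat2, H2-Q10 and Pimreg were picked with their values in view. The fit was also run on simulated counts with known changes, with the outcome not given here. Each gene was drawn separately, without a liver, lymph node or tumor-rich library. That run therefore could not test the influence of single libraries. Alternatives were DESeq2 1.42.0, voom with quality weights, log2(TPM + 1) with limma 3.58.1, other filters, other sets of libraries and each library left out in turn.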

Additional observations from a re-analysis of the deposited data

Results flagged for a closer look

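In the groups of 5 and 8 obese libraries, single libraries that stood far from the rest of their group (Dixon's test at 95%) were searched for in 73 genes. Of 146 pairs of gene and group, 15 held such a library. Genes named from these same values were among those searched, so the count cannot be set against a chance rate. In 7 of the 15 it was the liver library, which had been marked by Alb itself. IgG2a 5 stood apart in Alb (6363 CPM), Apob (740), Mug1 (247), Cps1 (338), Fga (326), Apoa2 (369) and H2-Q10 (148). Liver genes stood apart in anti-PD-1 4 at levels near 0, where Mug1 was at 0.147, Cps1 at 0.307 and Fga at 0.427 CPM. For Mug1 this was the highest level of the group. Muscle RNA stood apart in IgG2a 3, with Ckm, the creatine kinase of muscle, at 78.2 CPM.

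Among the other genes, Hmga2 was high in anti-PD-1 8 (5.84 CPM), the anti-PD-1 library with the highest sum of tumor-like genes (526 CPM). Fcgr1 was high in anti-PD-1 7 (13.3 CPM), Itgam in anti-PD-1 6 (40.4 CPM) and Cxcl10 in anti-PD-1 3 (17.8 CPM), a library with lymph node.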

How the results depend on the processing

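The 107 genes called with all libraries became 400 with DESeq2, 2704 with voom and quality weights, 70 with no filter, 49 with at least 1 CPM in 5 libraries, 0 with only obese libraries, 0 on log2(TPM + 1), 767 with only libraries without lymph node, 0 without IgG2a 2 and 5 together, 0 without the liver library and 556 with a lymph node term. Leaving out each library in turn gave 0 to 643: 0 without IgG2a 2 or 5 or anti-PD-1 1, 2, 5, 6 or 7, 13 without anti-PD-1 8, 228 without anti-PD-1 3, and 295, 208 and 643 without IgG2a 1, 3 and 4. The 0 genes with tissue accounted for became 134 with DESeq2, 1 on log2(TPM + 1), 37 without lymph node libraries and 0 to 39 with each library left out (39 without IgG2a 4). The 0 genes of the difference between obese and lean mice became 50 with DESeq2, 623 with voom and 0 to 1 with each library left out. Values near 0 changed sign. Cd274, at -0.04 with all libraries, was -0.33 with voom, -0.44 in libraries without lymph node, 0.11 on log2(TPM + 1), 0.051 without IgG2a 2 and 5 together, and -0.17 to 0.032 with each library left out. With tissue accounted for it was -0.03, -0.52 in libraries without lymph node, 0.099 with voom, 0.20 on log2(TPM + 1), 0.12 without IgG2a 2 and 5, and -0.18 to 0.12 with each library left out. Cd8a ranged from -1.49 to 0.34 with each library left out. With tissue accounted for it was 0.039 on log2(TPM + 1), 0.12 without IgG2a 2 and 5, and -0.61 to 0.12 with each library left out. Adipoq was -0.055 with only obese libraries, -0.018 without IgG2a 2 and 5, and -0.058 to 0.25 with each library left out. The causes were not tested. No paired analysis was possible because the labels give no replicate numbers.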
